A study of Mus musculus with 4 samples.

Results

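The genes described here are 8 genes of bone formation, 2 regulators (Runx2 and Sp7) and 6 genes of bone matrix and mineral (Spp1, Ibsp, Dmp1, Bglap, Alpl and Phex). They were chosen by name, and each symbol matched 1 Ensembl gene of the 54532 in the deposited count table. RNA was sequenced from primary fibroblasts of C57BL/6 mouse embryos taken at 12.5 to 13.5 days post-coitum, all harvested at passage 4 while growing, with 1 library per genotype. The 4 genotypes were Trp53-/-; Zfp871-/- (called the double null here), Trp53-/-, Zfp871-/- and wild type (WT). Trp53 encodes the tumour suppressor p53 and Zfp871 a zinc finger protein, and both genes are deleted in the double null, only Trp53 in Trp53-/- and only Zfp871 in Zfp871-/-. Double null, Trp53-/- and some WT cells came from crosses of Zfp871+/-; Trp53+/- mice, whereas Zfp871-/- and other WT cells came from crosses of Zfp871+/- mice. The sources used here do not name the cross behind the sequenced WT cells, the number of embryos in a culture or the make-up of either allele, so cross or litter and genotype cannot be told apart. The question for these genes is whether the bone programme that embryo fibroblasts can hold differed with the loss of Trp53, of Zfp871 or of both.

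Osteoblasts, the bone-forming cells, arise from mesenchymal cells in which RUNX2 is switched on first and SP7 (osterix) after it. Both factors activate genes of the mineralizing matrix, among them Spp1, Ibsp and Bglap, and late osteoblasts that become buried as osteocytes add Dmp1 and Phex. Embryo fibroblast cultures are mixed mesenchymal cells and can hold cells that are set toward bone or cartilage.

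The libraries held 22324599 counts in the double null, 21004078 in Trp53-/-, 19974054 in Zfp871-/- and 19303167 in WT. Of the 8 genes, 3 (Runx2, Sp7 and Spp1) passed a filter of 1 or more CPM (counts scaled to library size) in 2 or more libraries and were tested, and the other 5 were too low for that filter. All 8 fibroblast markers examined, such as Col1a1 and Pdgfra, were detected in every library. The bone genes Ibsp, Bglap and Alpl stood at 0 to 7 counts in every library, so these cultures had little RNA of mature osteoblasts. Beside the fibroblast markers, 8 macrophage markers summed to 742 and 799 normalized CPM in the double null and Trp53-/-, against 69.6 and 62.1 in Zfp871-/- and WT. The 8 chondrocyte markers summed to 167 normalized CPM in the double null, 109 in Trp53-/-, 489 in Zfp871-/- and 1539 in WT. In such bulk RNA, fewer cells of a type and less RNA per cell cannot be told apart. With 1 library per genotype, every ratio between libraries below lacks a replicate check and compares cultures. Intervals are 95% and cover counting error only.

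**Figure D1:**
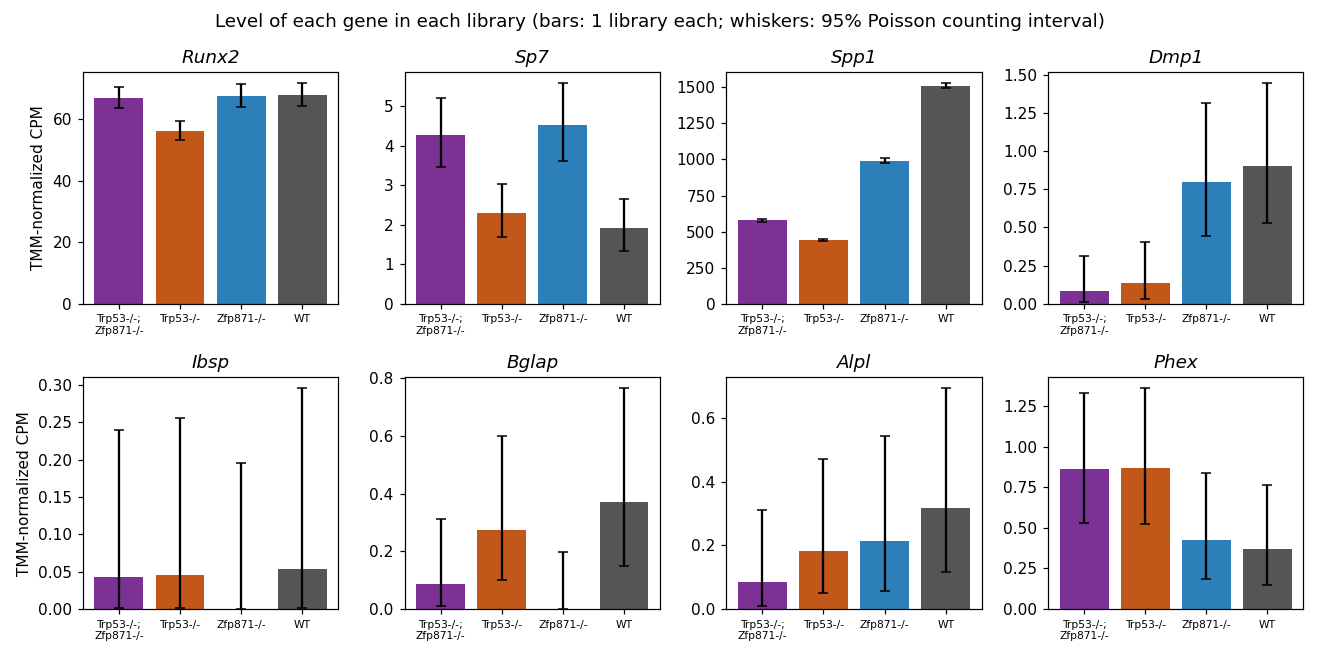
Level of each of the 8 genes, as TMM-normalized CPM on the y axis, in the 4 libraries on the x axis, with 95% Poisson counting intervals as whiskers. Runx2 stood between 56.2 and 68.0 in all libraries, Sp7 was higher in both Zfp871-null libraries, Spp1 was highest in WT at 1512, and Ibsp, Bglap and Alpl were near 0 throughout.

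The promoters of Spp1, Bglap and Dmp1 are printed. These genes stand downstream of RUNX2 in bone and were present here at very unequal levels although Runx2 RNA was present in every library. The same holds for Ibsp, whose promoter is not printed. The printed genes are those, beside Runx2, whose windows held the core RUNX motif, so their matches are no result about genes downstream of RUNX2. Of the 8 genes, 7 have an entry in the RefSeq promoter table (GRCm38.p6), and Sp7 has none. The table gives a window of 300 bases a gene, 250 before and 50 after the start site, and where it held several start sites the one nearest the GENCODE gene start was taken. The 250 bases before the start site are given 5′ to 3′ on the strand of the gene, with capitals marking the core RUNX motif (TGTGGT, or ACCACA on the other strand).
Spp1, chr5:104434861-104435110, strand +: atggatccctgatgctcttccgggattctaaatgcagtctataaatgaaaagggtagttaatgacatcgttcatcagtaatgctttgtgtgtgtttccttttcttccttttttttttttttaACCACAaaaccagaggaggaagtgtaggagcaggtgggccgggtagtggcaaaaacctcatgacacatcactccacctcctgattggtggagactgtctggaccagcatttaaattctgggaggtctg
Bglap, chr3:88384467-88384716, strand -: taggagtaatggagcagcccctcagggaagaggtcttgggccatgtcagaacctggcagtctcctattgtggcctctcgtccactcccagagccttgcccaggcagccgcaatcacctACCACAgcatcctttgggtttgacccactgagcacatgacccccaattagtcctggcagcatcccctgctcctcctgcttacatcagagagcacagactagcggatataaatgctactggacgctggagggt
Dmp1, chr5:104202367-104202616, strand +: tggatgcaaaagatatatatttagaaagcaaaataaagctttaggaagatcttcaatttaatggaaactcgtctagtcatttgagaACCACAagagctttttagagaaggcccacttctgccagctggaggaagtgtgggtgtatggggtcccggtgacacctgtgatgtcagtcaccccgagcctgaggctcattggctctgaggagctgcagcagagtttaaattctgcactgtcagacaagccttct

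Each of these 3 stretches held 1 match, whose first base lay at position -128 from the start site in Spp1, -132 in Bglap and -164 in Dmp1. The Runx2 window itself held 3 matches, so that 4 of the 7 windows held the motif, against 16.8% of all 32851 windows of this length in the table. The windows of Ibsp, Alpl and Phex held none. A TATAAA match on either strand was found in Spp1, Bglap and Ibsp (13.6% of all windows), a GC box (GGGCGG) in Alpl (35.7% of all windows), and the AP-1 motif TGANTCA in none (7.81% of all windows). No matches of different motifs overlapped in these windows, and a match describes letters in a window and not binding.

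Runx2, the factor that commits cells to the osteoblast fate, was present at a like level in all 4 libraries. Runx2 (ENSMUSG00000039153, chromosome 17, 44495987 to 44814797, GRCm38/mm10) had 1553 counts in the double null, 1226 in Trp53-/-, 1271 in Zfp871-/- and 1280 in WT. After TMM normalization these were 67.0, 56.2, 67.6 and 68.0 CPM, so that Trp53-/- was the lowest library and the other 3 lay within counting error of each other. The log2 ratio was -0.27 (-0.39 to -0.16) in Trp53-/- over WT and 0.25 (0.14 to 0.36) in the double null over Trp53-/-. It was -0.01 (-0.12 to 0.10) in Zfp871-/- over WT and -0.01 (-0.12 to 0.10) in the double null over Zfp871-/-. In the edgeR quasi-likelihood test of an additive model of both losses over all 4 libraries, the log2 change of Runx2 was -0.14 with Trp53 loss (SE 0.120, adjusted p 0.47) and 0.12 with Zfp871 loss (SE 0.120, adjusted p 0.88). Runx2os1, an antisense gene that shares 519 exon bases with Runx2, had 7 to 18 counts, and as no strand setting is stated its reads cannot be separated from those of Runx2.

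Sp7, the zinc finger factor that acts after Runx2 in osteoblasts, was at a low level and was higher in both libraries without Zfp871. Sp7 (ENSMUSG00000060284, chromosome 15, 102356606 to 102367182) had 99 counts in the double null, 50 in Trp53-/-, 85 in Zfp871-/- and 36 in WT. As normalized CPM these were 4.27, 2.29, 4.52 and 1.91, with both Zfp871-null libraries above both Zfp871-intact ones. The log2 ratio was 1.20 (0.66 to 1.85) in Zfp871-/- over WT and 0.87 (0.39 to 1.42) in the double null over Trp53-/-, pairs that share no library. Between the Trp53 genotypes it was 0.25 (-0.38 to 0.92) in Trp53-/- over WT and -0.08 (-0.51 to 0.35) in the double null over Zfp871-/-. The additive model gave a log2 change of 1.06 with Zfp871 loss (SE 0.312), whose unadjusted p was 0.0239 in the edgeR quasi-likelihood test and whose adjusted p was 0.87, so Sp7 was not called. In that test 0 of 13306 genes were called higher (0%) and 0 lower (0%) with Zfp871 loss. An unadjusted p under 0.05 was found for 510 genes (3.83%), no larger a share than that cut-off alone would give. The additive model counts a change that differs between Trp53 backgrounds as error. This share therefore cannot show whether Zfp871 loss had an effect in a single background. DESeq2 called 3 genes higher and 5 lower, and limma-voom 0 of each, with Sp7 called by neither. Runx2 had log2 ratios of -0.01 and 0.25 in the same pairs.

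Spp1, which encodes osteopontin, an acidic matrix protein that binds mineral and integrins, was the one abundant gene of the 8 and was lower in each mutant library than in WT. Spp1 (ENSMUSG00000029304, chromosome 5, 104435118 to 104441050) had 13393 counts in the double null, 9637 in Trp53-/-, 18669 in Zfp871-/- and 28485 in WT. These were 578, 442, 992 and 1512 normalized CPM, and both Trp53-null libraries lay below both Trp53-intact ones. The log2 ratio was -1.77 (-1.81 to -1.74) in Trp53-/- over WT, -0.78 (-0.81 to -0.75) in the double null over Zfp871-/- and -1.39 (-1.42 to -1.36) in the double null over WT. For Zfp871 loss it was -0.61 (-0.63 to -0.58) in Zfp871-/- over WT and 0.39 (0.35 to 0.42) in the double null over Trp53-/-, opposite directions in the Trp53-intact and Trp53-null backgrounds. In the additive model the log2 change with Trp53 loss was -1.28 (SE 0.273), with an adjusted p of 0.064 in the edgeR quasi-likelihood test, so Spp1 was not called. It was called as lower with no filter on low counts (edgeR adjusted p 0.0067), where 4.52% of all genes were, and by DESeq2 (adjusted p 4.2e-06), where 5.98% were, and the adjusted p over all 5 alternatives lay between 4.2e-06 and 0.079. With Zfp871 loss the log2 change of Spp1 was -0.11 (SE 0.269, adjusted p 0.95 in the edgeR quasi-likelihood test).

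Spp1 RNA is also made by macrophages and by hypertrophic chondrocytes, and markers of both differed between the libraries. All 8 macrophage markers rose with Trp53 loss in the edgeR quasi-likelihood test, with a median log2 change of 3.85 against 0.00 over all genes tested. Csf1r, the receptor that macrophages need, had 2437 counts in the double null, 2698 in Trp53-/-, 230 in Zfp871-/- and 192 in WT. The log2 change with Trp53 loss was 3.35 for Csf1r, 2.75 for Cd68, 4.04 for C1qa and 4.31 for Tyrobp. The macrophage markers were thus high in the libraries where Spp1 was low. Of the 5 chondrocyte markers tested, 2 fell with Trp53 loss. Col10a1, the collagen of hypertrophic cartilage, had 7 counts in the double null, 16 in Trp53-/-, 183 in Zfp871-/- and 4863 in WT, and fell by 7.71 on the log2 scale (edgeR quasi-likelihood adjusted p 0.018). Col11a1, a minor fibrillar collagen of cartilage, fell by 1.97 on the log2 scale (edgeR quasi-likelihood adjusted p 0.030). Col2a1, the main collagen of cartilage, had 50 counts in the double null, 25 in Trp53-/-, 558 in Zfp871-/- and 11633 in WT, and was not called (log2 change -6.48, edgeR quasi-likelihood adjusted p 0.068). With no filter on low counts 5 of the 8 chondrocyte markers were called lower with Trp53 loss. In that setting Col10a1 was also called lower with Zfp871 loss (log2 change -4.37, edgeR quasi-likelihood adjusted p 0.046), as were 0.0152% of all genes. With the filter its log2 change with Zfp871 loss was -4.39 and it was not called (edgeR quasi-likelihood adjusted p 0.87). Across the 4 libraries the summed chondrocyte markers had the same order as Spp1, with WT the highest, then Zfp871-/-, the double null and Trp53-/-. In the mutants that sum was mostly Col11a1, which alone gave 154.8 normalized CPM in the double null, 101.5 in Trp53-/- and 438.5 in Zfp871-/-, against 551.6 in WT. The single markers did not all keep that order. Col10a1 was at 0.302 normalized CPM in the double null and 0.734 in Trp53-/-. Matn3, a cartilage matrix protein gene, had 33 counts in the double null, 10 in Trp53-/-, 24 in Zfp871-/- and 12 in WT. Col9a1 and Matn1, which mark cartilage cells, were at 0 counts in both Trp53-null libraries. Col9a1 had 74 counts in WT and 3 in Zfp871-/-, whereas Matn1 had 0 in WT and 3 in Zfp871-/-. The part of either cell type in the Spp1 values was not tested.

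**Figure D2:**
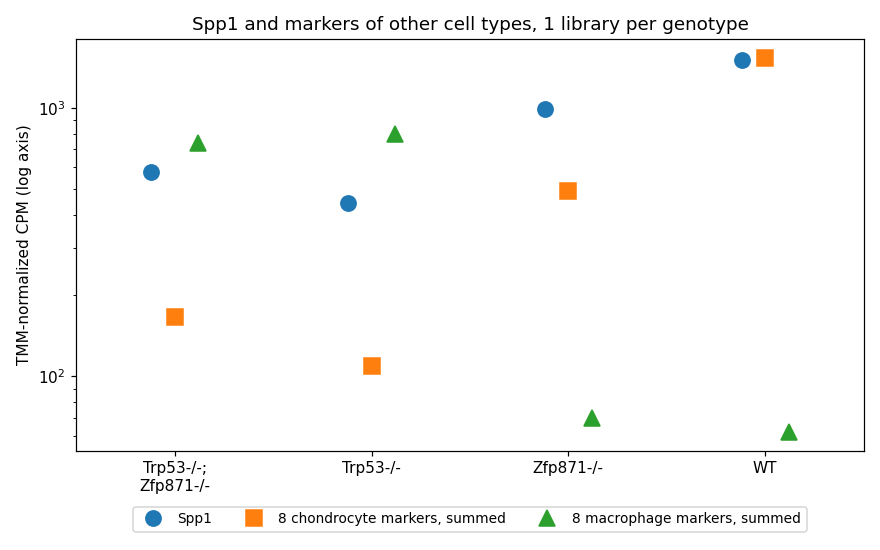
TMM-normalized CPM on a log axis of Spp1 (circles) and of the sums of 8 chondrocyte markers (squares) and 8 macrophage markers (triangles) in the 4 libraries on the x axis. Spp1 and the chondrocyte sum were highest in WT (1512 and 1539) and lowest in Trp53-/- (442 and 109), while the macrophage sum was highest in Trp53-/- (799) and lowest in WT (62.1).

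Read per length, Spp1 belonged to the most abundant RNAs of every library and the regulators did not. By the authors' FPKM, Spp1 stood at 350 in the double null, 266 in Trp53-/-, 602 in Zfp871-/- and 911 in WT, where it ranked 82, 116, 37 and 19 from the top. Runx2 stood at 7.56, 6.32, 7.64 and 7.63 FPKM in the same order of libraries, and Sp7 at 1.25, 0.670, 1.33 and 0.558 FPKM. The FPKM of Spp1 was 46.2 times that of Runx2 in the double null, 42.2 times in Trp53-/-, 78.8 times in Zfp871-/- and 119 times in WT. The FPKM of Runx2 was 6.03 times that of Sp7 in the double null, 9.43 times in Trp53-/-, 5.75 times in Zfp871-/- and 13.7 times in WT. A gene of uncertain status, Gm42793, lies on the same strand, shares 309 exon bases with Spp1 and had 5 to 15 counts.

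Spp1, Ibsp and Dmp1 belong to the SIBLING family of acidic matrix proteins and lie side by side on chromosome 5 with Dspp, best known from tooth dentin, and Mepe, an osteocyte gene, in that order Dspp, Dmp1, Ibsp, Mepe and Spp1 over 270 kb. Their RNA levels were far apart, though Spp1 and Dmp1 were each lower in both Trp53-null libraries than in both Trp53-intact ones. Ibsp (ENSMUSG00000029306, 104299171 to 104311469), which encodes bone sialoprotein, had 1 count in the double null, 1 in Trp53-/-, 0 in Zfp871-/- and 1 in WT. In Zfp871-/-, 0 counts allows up to 3 counts, or 0.150 CPM of the unnormalized total, and the upper 95% Poisson limit is 0.196 normalized CPM. Ibsp, which only Mepe separates from the abundant Spp1, was thus barely detected. Mepe had 1 count in the double null and 0 in the other libraries. The genes that flank these 5 are Sparcl1, an extracellular matrix protein gene with 42 counts in the double null, 44 in Trp53-/-, 100 in Zfp871-/- and 69 in WT, and Pkd2, a polycystin channel gene of every library. Of the 7 genes 3 were tested, with a median log2 change with Trp53 loss of -1.21, and 0 were called in the edgeR quasi-likelihood test.

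Dmp1, which encodes a mineral-nucleating protein of osteocytes, had few counts, most of them in the Trp53-intact libraries. Dmp1 (ENSMUSG00000029307, 104202613 to 104214102) had 2 counts in the double null, 3 in Trp53-/-, 15 in Zfp871-/- and 17 in WT. The ratio was 0.152 (0.0286 to 0.527) in Trp53-/- over WT and 0.108 (0.0120 to 0.465) in the double null over Zfp871-/-. Zfp871 genotype made no difference beyond counting error, with ratios of 0.884 (0.411 to 1.88) in Zfp871-/- over WT and 0.627 (0.0524 to 5.47) in the double null over Trp53-/-. With no filter on low counts the log2 change with Trp53 loss was -2.88 (SE 0.797), whose adjusted p of 0.062 in the edgeR quasi-likelihood test missed the threshold. Dspp, its neighbour 22.5 kb away, was split by Zfp871 genotype instead, with 0 counts in the double null, 11 in Trp53-/-, 0 in Zfp871-/- and 20 in WT. With 3 counts put in place of 0, the Dspp level of Zfp871-/- cells was 6.66-fold lower than that of WT cells. Computed likewise, the level of double null cells was 3.90-fold lower than that of Trp53-/- cells. The counting intervals of the observed ratios, which also cover the error of the other library, reached 0.203 and 0.375. Dspp was not called with no filter on low counts (edgeR quasi-likelihood adjusted p 0.73 for Zfp871 loss).

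Bglap and Alpl, markers of osteoblasts, were close to silent. Bglap (ENSMUSG00000074483, chromosome 3, 88383501 to 88384464), which encodes osteocalcin, had 2 counts in the double null, 6 in Trp53-/-, 0 in Zfp871-/- and 7 in WT. With 3 counts put in place of 0, its level in Zfp871-/- cells was 2.33-fold lower than that of WT cells. The counting interval of the observed ratio, which also covers the error of the 7 WT counts, reached 0.695. For the double null over Trp53-/- the ratio was 0.314 (0.0309 to 1.75). Bglap belongs to a family of near-identical copies whose reads can be lost or shared between them, and its copies Bglap2 and Bglap3 had 0 to 2 and 2 to 6 counts, so its values are uncertain. Alpl (ENSMUSG00000028766, chromosome 4, 137741733 to 137796384), the phosphatase that removes the mineral inhibitor pyrophosphate, had 2 counts in the double null, 4 in Trp53-/-, 4 in Zfp871-/- and 6 in WT, and no pair of libraries differed beyond counting error.

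Phex, an X-linked endopeptidase of osteoblasts and osteocytes needed for phosphate balance, was low and had more counts in both Trp53-null libraries. Phex (ENSMUSG00000057457, chromosome X, 157162075 to 157415312) had 20 counts in the double null, 19 in Trp53-/-, 8 in Zfp871-/- and 7 in WT. The ratio was 2.34 (0.944 to 6.60) in Trp53-/- over WT and 2.03 (0.856 to 5.32) in the double null over Zfp871-/-, and neither interval left out an equal level. With counts summed over both libraries of a Trp53 genotype, 39 against 15, the ratio was 2.18 (1.17 to 4.25). With no filter on low counts the log2 change with Trp53 loss was 1.11 (SE 0.599), with an adjusted p of 0.40 in the edgeR quasi-likelihood test. The direction was the opposite of that of Dmp1, for which the summed counts were 5 against 32.

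**Figure D3:**
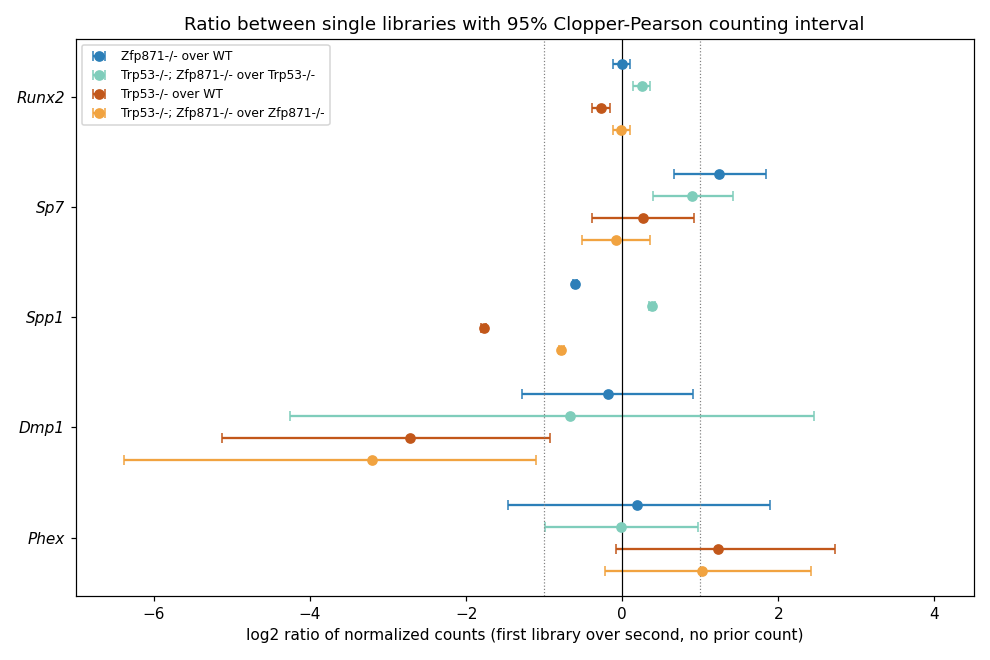
Log2 ratio between single libraries (x axis) for 5 of the 8 genes (y axis), with no prior count added, and whiskers for the 95% Clopper-Pearson counting interval. Dotted lines mark 2-fold, and Alpl, Ibsp and Bglap are left out because of their low counts. Sp7 lies to the right for both pairs that differ in Zfp871, Spp1 and Dmp1 lie to the left for both pairs that differ in Trp53, and the Spp1 values for Zfp871 loss lie on either side of 0.

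Counted over the genes tested, 0 of 3 rose and 0 of 3 fell with Trp53 loss in the edgeR quasi-likelihood test, in which 5.01% of all 13306 genes were called higher and 4.31% lower. With total counts in place of TMM, 67.2% of all calls with Trp53 loss were upward instead of 53.8%, and the median log2 change of all genes was 0.12 instead of 0.00. In Zfp871-/- over WT, 1 gene of the 3 (Sp7) was 2-fold or more higher (3.52% of all genes) and 0 were lower (3.98%). In the double null over Trp53-/-, 0 were 2-fold higher (0.819% of all genes) and 0 lower (1.01%). In Trp53-/- over WT, 0 were 2-fold higher (8.9%) and 1, Spp1, was lower (8.88%). In the double null over Zfp871-/-, 0 were 2-fold higher (5.51%) and 0 lower (6.33%). In the double null over WT, Sp7 was 2-fold higher (8.79%) and Spp1 2-fold lower (9.23%). With 3 genes tested, these counts set nothing apart from the rest of the genes. Several of these pairs share a library, WT or the double null among them.

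Among other genes of the osteoblast pathway, the number called with Trp53 loss depended on the filter and the tool. Of 12 transcription factors of the lineage 10 were tested, and 0 rose and 0 fell with Trp53 loss in the edgeR quasi-likelihood test, with a median log2 change of -0.02. DESeq2 called 0 of them higher and 2 lower, and edgeR with no filter on low counts called 1 of all 12 higher and 3 lower. Of all genes, DESeq2 called 5.97% higher and 5.98% lower, limma-voom 5.61% and 5.08%, and edgeR with no filter 4.22% and 4.52%. Msx2, a homeobox factor of bone and skull, had 23 counts in the double null, 13 in Trp53-/-, 50 in Zfp871-/- and 245 in WT. Dlx5, a homeobox activator of the osteoblast programme, had 23, 11, 33 and 69 counts, listed likewise. Both were highest in WT, whereas Lef1, a transcription factor of Wnt signalling, had 65 counts in the double null, 88 in Trp53-/-, 19 in Zfp871-/- and 17 in WT. Gli2, which relays hedgehog signals, had 685, 694, 473 and 308 counts in that order.

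Of 7 genes that restrain RUNX2, 1 rose and 0 fell with Trp53 loss, with a median log2 change of -0.30, while DESeq2 and edgeR with no filter each called 2 higher and 1 lower. Twist2, Hey1 and Zfp521 did not pass the edgeR quasi-likelihood test. Twist2, a repressor of early osteoblasts, had 788 counts in the double null, 1104 in Trp53-/-, 472 in Zfp871-/- and 316 in WT, and Hey1, a target of Notch, had 159, 122, 228 and 308 in the same order. Zfp521, a partner of RUNX2, had 1116, 1147, 1086 and 1701 counts.

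Of 16 genes of bone matrix and mineral 10 were tested, and 0 rose and 0 fell in the edgeR quasi-likelihood test, with a median log2 change with Trp53 loss of -0.47, against 0.00 over all genes tested. DESeq2 called 4 of them lower, limma-voom 2, and edgeR with no filter on low counts 5 of all 16. Mgp, which encodes an inhibitor of calcification, had 823 counts in the double null, 542 in Trp53-/-, 1838 in Zfp871-/- and 5891 in WT. Omd, a keratan sulfate proteoglycan of bone, had 18, 18, 40 and 160 counts, listed likewise. The phosphate transporter Slc20a1 had 5365, 5458, 4561 and 2944 counts, and Smpd3, a sphingomyelinase needed for bone mineral, had 82, 100, 90 and 49. Mgp and Omd were thus highest in WT, as were Spp1, Msx2 and the chondrocyte markers Col2a1, Col10a1 and Col11a1, and the part of cartilage cells in these values was not tested.

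Of 15 signals and receptors of bone 13 were tested, and 0 rose and 0 fell with Trp53 loss, with a median log2 change of -0.32, while limma-voom and edgeR with no filter each called 1 lower. Bmp4, a bone morphogenetic protein, had 75 counts in the double null, 90 in Trp53-/-, 198 in Zfp871-/- and 2303 in WT. Tnfsf11, the RANK ligand that drives osteoclast formation, had 136, 91, 129 and 445 counts, listed likewise. Vdr, the vitamin D receptor, had 943, 1118, 1137 and 290 counts, and Bmpr1b, a receptor of bone morphogenetic proteins, had 474, 440, 387 and 264. WT was set apart from all 3 mutant libraries in Bmp4 and Vdr. Of 6 osteocyte genes 2 were tested, Pdpn (3912, 4123, 5604 and 2438 counts) and Fam20c (607, 611, 556 and 556 counts), and 0 were called. The osteocyte genes Sost and Fgf23 had 1 and 2 counts in the double null and 0 in the other libraries. With Zfp871 loss, 0 genes of these lists were called in the edgeR quasi-likelihood test with the filter on low counts. Of the other cell type lists, 1 of 8 fibroblast markers (Col3a1) fell with Trp53 loss and 0 rose in the edgeR quasi-likelihood test. DESeq2 called 2 of these markers higher and 2 lower, and edgeR with no filter 1 higher and 2 lower. Their log2 changes were -0.85 for Col3a1, -0.69 for Col1a1, 0.93 for Thy1 and 1.03 for Pdgfra. Of the osteoclast markers 3 were tested and 0 were called, but Mmp9, a gelatinase of osteoclasts that macrophages also make, was called higher by DESeq2, by limma-voom and by edgeR with no filter. Mmp9 had 1940 counts in the double null, 1893 in Trp53-/-, 291 in Zfp871-/- and 39 in WT (log2 change 3.68, edgeR quasi-likelihood adjusted p 0.059). The protease gene Ctsk had a log2 change of 0.49, and the phosphatase gene Acp5 one of -0.08. Of the smooth muscle markers 4 were tested and 0 were called, with log2 changes of -0.21 for Myh11, 0.00 for Tagln, 0.05 for Acta2 and 0.32 for Cnn1.

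**Figure D4:**
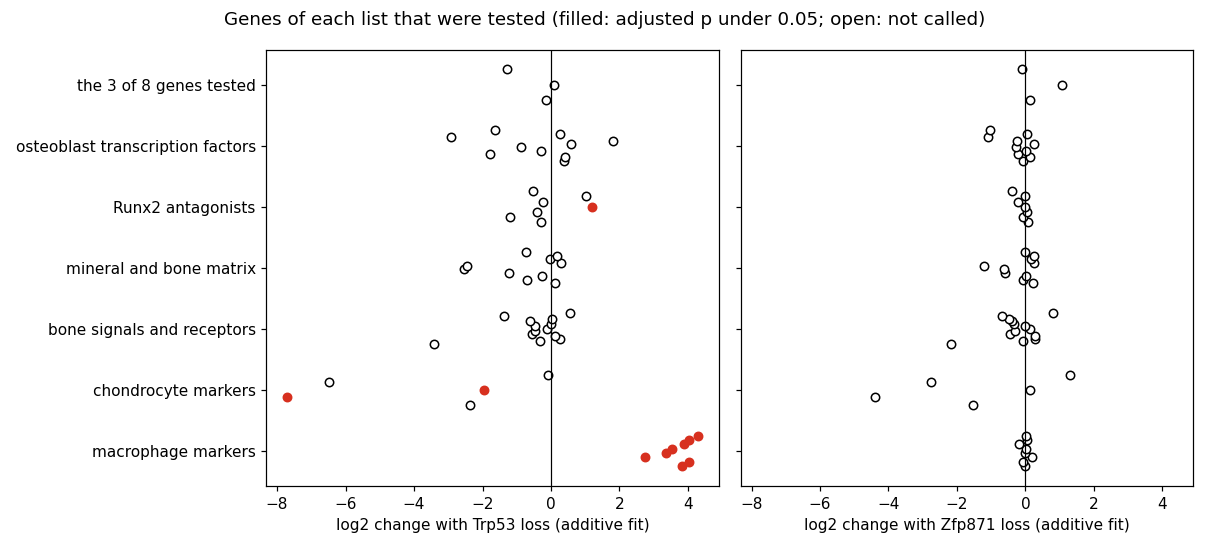
Log2 change in the additive model with Trp53 loss (left) and with Zfp871 loss (right) on the x axis for the tested genes of each list on the y axis, where filled points passed an adjusted p of 0.05. All 8 macrophage markers are filled on the left, as are 2 chondrocyte markers and 1 of the Runx2 antagonists, and no point is filled on the right.

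The genes whose profile over the 4 libraries was nearest to that of a bone gene were found among 12374 other protein-coding genes by the root mean square difference of centred log2 CPM. For Sp7 these were Neb (0.076), a giant protein of muscle filaments, with 77 counts in the double null, 40 in Trp53-/-, 67 in Zfp871-/- and 32 in WT, and Tmem171 (0.096). For Spp1 they were P2rx5 (0.047), an ATP-gated channel, and Arhgef28 (0.048), which had 570 counts in the double null, 445 in Trp53-/-, 861 in Zfp871-/- and 1300 in WT. For Runx2 they were Nkiras2 (0.015) and Gfm2 (0.019), but 785 genes lay within 0.1 of its nearly flat profile, against 2 for Sp7 and 17 for Spp1. With 4 libraries such likeness is a description only.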

How the data were processed

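The authors deposited raw counts per Ensembl gene and, per library, normalized values. Per the submitters' processing notes, fastp, STAR and featureCounts were used on mm10; for these, versions, strandedness and gene annotation are not given in the sources. The unit of the deposited normalized values is not in their header; they were read as FPKM because each equals the count divided by 1 factor per library and a length per gene, which lay within 1% of the GENCODE M21 exon length for 95.5% of 10547 genes. Symbols and coordinates are from GENCODE M21 (GRCm38/mm10), in which 54409 of 54532 gene IDs were found.

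Counts were normalized with TMM in edgeR 4.0.16 (R 4.3.3); the double null had a factor of 1.041, Trp53-/- 1.041, Zfp871-/- 0.944 and WT 0.978. Genes with a CPM of at least 1 in at least 2 of 4 libraries were kept (13306). The test was edgeR's quasi-likelihood test of an additive model of Trp53 and Zfp871 loss, with 1 residual degree of freedom, Benjamini-Hochberg adjusted over all genes tested at 0.05. Libraries of different genotype stand in for replicates there, and the residual is the departure of these 4 cultures from additive effects. A change that differs between backgrounds thus counts as error, as do differences between cultures, and the p-values hold for these 4 cultures only. The test was tried on data simulated with additive changes only, which cannot show how it behaves where a change differs between backgrounds. "Rose" and "fell" are used of genes past this test. Log2 ratios between libraries use a prior count of 2, and ratios of the 5 low genes use none; intervals are Clopper-Pearson at 95%, and since no molecular identifiers were used, reads may repeat a molecule. Alternatives were DESeq2 1.42.0 (size factors and Wald test), limma 3.58.1 (voom), total counts, no filter, a prior count of 0.5 and the authors' FPKM with a pseudocount of 0.1.

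All 8 genes are described whatever their values. From each other list up to 4 tested genes are named, the 2 highest and 2 lowest by log2 change with Trp53 loss. Outside that rule, the untested genes Col9a1, Matn1, Sost and Fgf23 were named with their values in view. Dspp, Mepe, Bglap2 and Bglap3, also untested, were picked by hand outside that rule. A gene of the Runx2 antagonists is not reported here. The genes and lists were chosen with earlier results of these data known. Promoter sequences are from RefSeq (GRCm38.p6).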

Additional observations from a re-analysis of the deposited data

Results flagged for a closer look

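The response of Spp1 to Zfp871 loss went in opposite directions in the Trp53-intact and Trp53-null backgrounds, with both counting intervals leaving out an equal level. The log2 ratio was -0.61 (-0.63 to -0.58) in Zfp871-/- over WT and 0.39 (0.35 to 0.42) in the double null over Trp53-/-. The difference between backgrounds, 0.99 on the log2 scale, was not tested, since 4 libraries leave no error term for it. Median log2 ratios of the 5 chondrocyte markers tested were -3.52 and 0.75 in the same pairs, and the part of these cells in the Spp1 values was not tested. No other gene of the 8 met this condition for Zfp871 or Trp53 loss, and groups of 1 library could not be examined for outlying samples.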

How the results depend on the processing

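No paired analysis was possible because each genotype had 1 library and the labels give no replicate numbers, and no library could be left out of the additive model without losing its last residual degree of freedom. Of the 8 genes, 1 (Spp1) was called as lower with Trp53 loss with no filter on low counts and 1 by DESeq2, against 0 in the main analysis. Over all genes, DESeq2 gave 794 higher and 796 lower with Trp53 loss, and no filter gave 1113 and 1191 (main 667 and 574) and 2 higher and 4 lower with Zfp871 loss (main 0 and 0), where DESeq2 gave 3 and 5. With no filter, members at least 2-fold lower numbered 1 of 8 in Zfp871-/- over WT (8.8% of 26366 genes), 1 in the double null over Trp53-/- (4.33%), 2 in Trp53-/- over WT (11.4%), 1 in the double null over Zfp871-/- (9.61%) and 4 in the double null over WT (11.3%), and those higher numbered 1 in Trp53-/- over WT (9.7%) and 2 in the double null over WT (9.5%). These added genes have at most 20 counts in a library. Total counts moved the Runx2 ratio in the double null over Zfp871-/- to 0.13 and that of Sp7 to 0.06, each from slightly below 0. They also moved the Spp1 log2 ratio outside its counting interval in most pairs. It became -0.659 in Zfp871-/- over WT, -1.685 in Trp53-/- over WT and -0.640 in the double null over Zfp871-/-. In the double null over WT it became -1.298, and in the double null over Trp53-/- it stayed inside, at 0.387. Of 90 recomputed counts 75 stayed within 1.5 times the main count. Most of those 75 were counts of 0 that stayed at 0, and the main counts of members were 0 or 1. That share therefore says little about how stable the results are. No called value reversed. 5 of the 8 genes were too low for any statement beyond counting intervals.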
